A study of Mus musculus with 21 samples.

Results

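The 10 amino acid transporter genes described here were Slc7a5, Slc3a2, Slc7a6, Slc43a1, Slc7a1, Slc7a11, Slc1a5, Slc1a4, Slc38a1 and Slc38a2. They were chosen as plasma membrane carriers of amino acids, with earlier results of these data known, out of 14698 genes listed in at least 1 of 4 RNA-seq tables. The cells were Ba/F3, a mouse pro-B line that normally needs interleukin-3, and all 7 groups expressed JAK2-V617F, the constitutively active JAK2 mutant of myeloproliferative neoplasms. For the continuous comparison, 3 libraries each came from cells kept for 6 h in 1 μM ruxolitinib, a type I JAK inhibitor that binds the active kinase (ruxolitinib-treated), in 1 μM CHZ868, a type II inhibitor that binds the inactive kinase (CHZ868-treated), or in DMSO, the solvent (DMSO-treated). For the washout comparison, 3 libraries each came from cells given 1 μM of either inhibitor for 1 h, washed 3 times with PBS and grown for 6 h without it (ruxo-wash and CHZ868-wash), and each of these groups had its own 3 DMSO-wash libraries. The labels do not say whether replicates were separate cultures, so p-values measure the spread between these libraries, which may be technical.

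System L carriers bring in large neutral amino acids such as leucine, and the main one, LAT1, is a dimer of a transporting light chain (Slc7a5) and a glycoprotein heavy chain (Slc3a2, CD98). ASCT2 (Slc1a5) and the sodium-coupled SNAT carriers (Slc38a1 and Slc38a2) move glutamine and small neutral amino acids, CAT1 (Slc7a1) imports arginine and lysine, and xCT (Slc7a11) takes up cystine in exchange for glutamate. Growing lymphoid and myeloid cells raise several of these carriers on cytokine stimulation, and the leucine and arginine they deliver are sensed by mTORC1. Several are also known targets of ATF4, the transcription factor of the amino acid response.

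With CHZ868 for 6 h, 9 of 10 transporters fell and 1, Slc43a1, rose, where 26.4% of all genes were called lower and 26.8% higher. The arginine carrier Slc7a1, the cystine carrier Slc7a11 and the glutamine carrier Slc1a5 changed most, with log2 fold changes of -1.73 to -2.04. With ruxolitinib the same 3 genes had the largest differences, of -1.03 to -1.36, and after washout of either inhibitor no transporter passed the test. Few genes of any kind did so after washout. For CHZ868 1.96% of all genes were called higher and 2.07% lower, and for ruxolitinib 0% and 0.0229%.

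Between 7880000 and 10670000 reads lay on the listed genes in the 15 libraries of the 3 tables whose low values were whole reads. In the table of the ruxo-wash experiment only 25.0 to 27.8% of the low values were whole, and the depth of its 6 libraries remains unknown. Mitochondrial transcripts took 4.94 to 6.38% of the signal in CHZ868-treated libraries against 1.37 to 1.43% in DMSO-treated libraries, and their part in the results below was not tested. Ruxolitinib-treated replicate 2 (3.53%, against 1.70 and 1.73% in replicates 1 and 3) and DMSO-wash replicate 3 of the CHZ868 experiment (5.35%, against 2.85 and 2.28%) stood apart from their groups. Of 12 pro-B and early B markers, Cd79a and Cd79b were listed and the other 10 were not. Of 5 receptor and surface genes of interleukin-3 dependent cells 4 were listed, none of 5 T cell markers was, and the macrophage list had 2 of 4 genes listed in 3 tables and 4 of 4 in the ruxo-wash table. Of 3 JAK2 and STAT5 target genes, Pim1 fell by 3.20, Cish by 1.39 and Socs2 by 0.66 with CHZ868 (adjusted p = 2.59e-13, 1.83e-09 and 0.000264, limma). With ruxolitinib they differed by -2.84, -1.32 and -0.71. After washout 0 of the 3 were called, with 0.14, 0.00 and -0.06 for CHZ868 and 0.10, 0.13 and 0.04 for ruxolitinib in the same order. In the ruxolitinib washout, however, 0 of 13085 genes were called higher and 3 lower. There Pim1 (unadjusted p = 0.0292, limma) and Cish (unadjusted p = 0.101, limma) were higher in every ruxo-wash than in every DMSO-wash library. For Socs2 these groups overlapped, and 6.3% of all genes were higher without overlap. In the CHZ868 washout the groups overlapped for all 3.

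All levels below are log2 CPM, which is the log2 of the read count scaled to the library size, with a small constant added, and all differences are log2 fold changes with the standard error (SE) of the limma fit. Each of the 4 tables was normalised by itself, so levels in different tables are not on one scale. A gene was called changed at an adjusted p under 0.05 over all genes of its table, by limma-trend with Benjamini-Hochberg adjustment. In CHZ868-treated against DMSO-treated cells 26.4% of 11670 genes were called lower and 26.8% higher, and this is the background for the 9 transporters called lower and the 1 called higher. The 10 were chosen with earlier results of these data known, so their share against this background is a description only. The groups also did not overlap for any of the 10, as for 30.1% of all genes in the lower and 29.6% in the higher direction. The median of the 10 differences was -0.96, and that of all genes was -0.01. In a bulk sample fewer cells and less RNA per cell cannot be told apart.

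**Figure D1:**
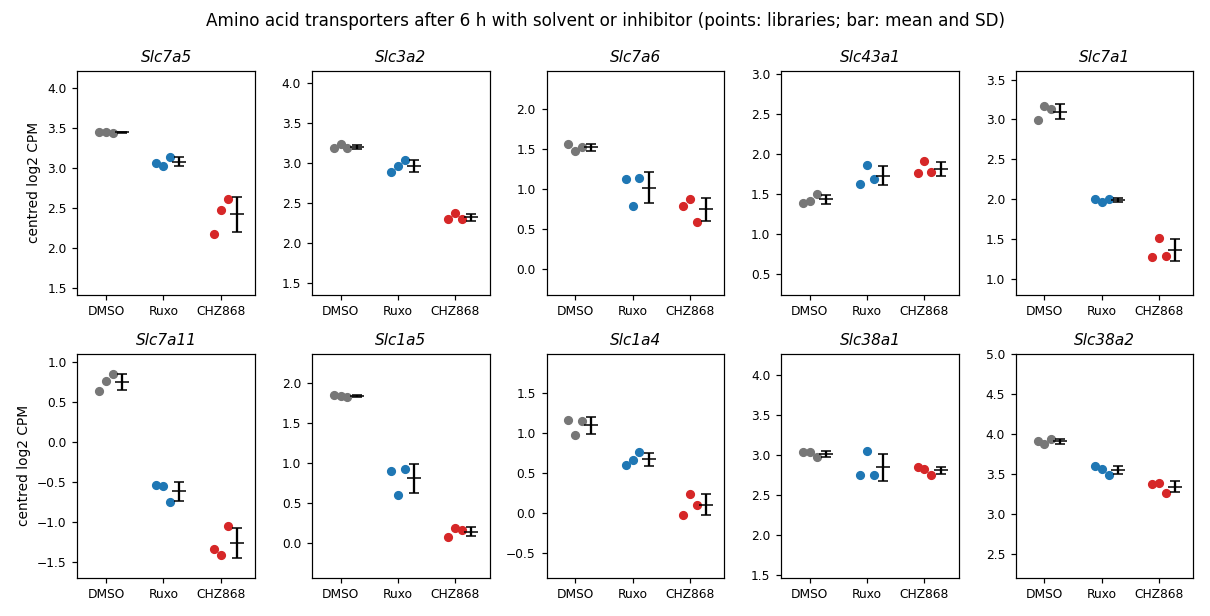
Centred log2 CPM (log2 CPM minus the median of the library over 11624 shared genes, vertical axis, every panel spanning the same range) of each transporter in the 3 DMSO-treated, 3 ruxolitinib-treated and 3 CHZ868-treated libraries. Points are libraries and the bar beside them is the mean with the SD, and for 9 genes the mean steps down from DMSO to ruxolitinib to CHZ868, least for Slc38a1, while for Slc43a1 it steps up.

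Slc7a11 encodes xCT, the light chain of the cystine and glutamate exchanger that also pairs with Slc3a2, and lies on chromosome 3 from 49892526 to 50443614, minus strand (GRCm38). Its 3 DMSO-treated libraries had 5.88, 6.02 and 6.10 log2 CPM, and its 3 CHZ868-treated libraries had 3.89, 3.82 and 4.16. The groups did not overlap, and the gene fell by 2.04 (SE 0.12, adjusted p = 3.35e-09, limma), lower than all but 1.0% of the genes tested. It was also the transporter with the lowest level per kilobase of the longest coding transcript, with 6.92 ± 0.52 CPM per kilobase in DMSO-treated and 1.67 ± 0.22 in CHZ868-treated cells (SD, n = 3 each). Slc7a11 has 2 coding transcripts, and the rank depends on the length used. The longest Slc7a11 transcript, of 9223 bases, holds a stretch of up to 585 bases that is 92.5% identical to the tubulin gene Tuba1b, and 15 genes match it in all, among them Tuba1a and Tuba1c, so its read count is uncertain to the extent that tubulin reads were assigned to it.

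Slc7a11 and Slc1a4 hold letters that match the composite element of the amino acid response near their start sites, and these sequences are shown for that reason. Of the 10 transporters 7 had an entry in the RefSeq promoter table (GRCm38.p6, 250 bases before to 50 after each start), and Slc7a5, Slc38a1 and Slc1a5 had none. The letters searched, on both strands, were TGATGNAA for the ATF4 composite element, CACGTG for the E-box that MYC and other factors bind, and TTCNNNGAA for the STAT element. TGATGNAA was found in 3.97% of the 32851 promoter windows of this length, CACGTG in 7.15% and TTCNNNGAA in 8.30%, and in the transporters no match overlapped one to another element. The 250 bases before the Slc7a11 start (chr3:50443614-50443863, minus strand) hold 2 matches to TGATGNAA in opposite directions, at -66 to -59 and -47 to -40 from the start, and 1 match to TTCNNNGAA at -183 to -175. In the Slc1a4 window (chr11:20332699-20332728, minus strand) 1 match spans the start itself. Slc43a1, the transporter that rose, is also shown (chr2:84840073-84840322, plus strand), with no TGATGNAA and 1 CACGTG at -64 to -59. Capitals mark TGATGNAA in the first pair and CACGTG in Slc43a1.
Slc7a11, 250 bases upstream: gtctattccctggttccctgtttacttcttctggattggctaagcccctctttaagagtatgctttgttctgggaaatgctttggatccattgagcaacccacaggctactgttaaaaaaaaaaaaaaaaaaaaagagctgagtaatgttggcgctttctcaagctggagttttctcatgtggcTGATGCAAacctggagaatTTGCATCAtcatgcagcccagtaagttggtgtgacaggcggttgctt
Slc1a4, 30 bases around the start: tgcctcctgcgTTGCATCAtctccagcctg
Slc43a1, 250 bases upstream: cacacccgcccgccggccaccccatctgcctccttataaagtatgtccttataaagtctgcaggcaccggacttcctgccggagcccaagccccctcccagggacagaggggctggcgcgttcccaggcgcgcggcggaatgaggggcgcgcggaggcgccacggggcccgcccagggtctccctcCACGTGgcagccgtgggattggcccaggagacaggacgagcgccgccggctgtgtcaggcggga

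The windows of Slc7a1, Slc7a6, Slc38a2 and Slc3a2, which all fell with CHZ868, held neither TGATGNAA nor CACGTG, and 1 of the 2 Slc7a1 windows held TTCNNNGAA. The Slc43a1 window held no TGATGNAA either, and a link of these letters to the changes was not tested. The Slc43a1 window and that of Slc3a2 (chr19:8713898-8714147) lie before starts inside the annotated genes, and the bases before their outer starts were not searched. These matches describe letters only, and elements elsewhere in the genes were not searched.

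Slc7a1 encodes CAT1, the sodium-independent carrier of arginine and lysine (chromosome 5, 148327410 to 148399904, minus strand). It had 8.24, 8.42 and 8.37 log2 CPM in DMSO-treated libraries and 6.49, 6.75 and 6.50 in CHZ868-treated libraries. Every CHZ868-treated library was far below every DMSO-treated library, and the gene fell by 1.76 (SE 0.08, adjusted p = 1.23e-10, limma). Per kilobase its level went from 45.3 ± 2.86 to 13.4 ± 1.37 CPM (SD, n = 3 each).

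Slc1a5 encodes ASCT2, which exchanges glutamine, alanine, serine and cysteine across the membrane (chromosome 7, 16781340 to 16798274, plus strand). Its DMSO-treated libraries had 7.10, 7.08 and 7.07 log2 CPM and its CHZ868-treated libraries had 5.29, 5.41 and 5.37. The replicates lay close together within both groups and the groups were far apart, with a fall of 1.73 (SE 0.08, adjusted p = 1.2e-10, limma). Its relative Slc1a4, which encodes ASCT1, a carrier of serine, alanine and cysteine (minus strand of chromosome 11, 20302180 to 20332713), had 6.42, 6.23 and 6.40 log2 CPM in DMSO-treated and 5.20, 5.47 and 5.31 in CHZ868-treated libraries. The Slc1a4 groups did not overlap either, and it fell by 1.02 (SE 0.10, adjusted p = 4.11e-07, limma).

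Both chains of LAT1 fell. The light chain Slc7a5, found on chromosome 8 (minus strand, 121881150 to 121907694), had 8.70, 8.70 and 8.69 log2 CPM in DMSO-treated libraries and 7.40, 7.71 and 7.82 in CHZ868-treated libraries. The CHZ868-treated replicates varied more than the DMSO-treated ones but stayed below them, with a fall of 1.05 (SE 0.09, adjusted p = 8.16e-08, limma). The heavy chain Slc3a2, found on chromosome 19 (minus strand, 8706882 to 8723369), had 8.43, 8.48 and 8.42 log2 CPM in DMSO-treated and 7.51, 7.61 and 7.50 in CHZ868-treated libraries. It fell by 0.91 (SE 0.06, adjusted p = 6.71e-09, limma), again with no overlap. Slc7a6 encodes a further light chain that pairs with Slc3a2 and exchanges cationic for neutral amino acids (y+LAT2, chromosome 8, 106168857 to 106198706, plus strand). It had 6.80, 6.72 and 6.78 log2 CPM in DMSO-treated and 6.00, 6.10 and 5.81 in CHZ868-treated libraries, a fall of 0.80 (SE 0.08, adjusted p = 1.68e-06, limma).

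Slc43a1 moved the other way. It encodes LAT3, a system L carrier that works without the Slc3a2 heavy chain (chromosome 2, 84838850 to 84863594, plus strand). Its DMSO-treated libraries had 6.64, 6.66 and 6.74 log2 CPM and its CHZ868-treated libraries had 6.98, 7.14 and 6.98. The CHZ868-treated libraries were all higher, by 0.36 on average (SE 0.07, adjusted p = 0.000671, limma), which is a smaller change than that of 8 of the 9 transporters that fell.

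The system A carriers had the smallest fold changes among the 9 genes that fell. Slc38a2, which encodes SNAT2, is on the minus strand of chromosome 15 (96687392 to 96699730) and had 9.15, 9.12 and 9.18 log2 CPM in DMSO-treated and 8.59, 8.62 and 8.47 in CHZ868-treated libraries. It fell by 0.59 (SE 0.06, adjusted p = 6.43e-07, limma). Slc38a1, which encodes SNAT1 and lies nearby on the same strand (96571418 to 96642913), had 8.28, 8.28 and 8.21 log2 CPM against 8.05, 8.05 and 7.96. The Slc38a1 groups did not overlap, but its fall of 0.23 (SE 0.06, adjusted p = 0.00287, limma) was the smallest of the 10 changes, and 33.5% of all genes had a lower fold change.

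Per kilobase of the longest coding transcript, the order in DMSO-treated cells was Slc3a2, Slc38a2 and Slc7a5 (118 to 124 CPM per kilobase), then Slc1a5, Slc7a1, Slc38a1, Slc43a1, Slc7a6, Slc1a4 and Slc7a11. The libraries of Slc3a2 and Slc38a2 overlapped, as did those of Slc7a1 and Slc38a1, and the other neighbours in this order did not overlap. In CHZ868-treated cells Slc38a2 (81.2 ± 4.44 CPM per kilobase) was followed by Slc3a2 (66.0 ± 2.71), Slc7a5 (57.3 ± 8.43) and then Slc43a1 (42.4 ± 2.76), each SD over n = 3. Slc43a1 was thus the fourth of the 10 with CHZ868 and the seventh without it. Slc1a5 and Slc7a1, which had 49.0 ± 0.52 and 45.3 ± 2.86 CPM per kilobase in DMSO-treated cells, stood at 14.8 ± 0.65 and 13.4 ± 1.37 with CHZ868.

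Ruxolitinib-treated cells are in a table of their own, so the median of every library over the 11624 genes shared with the other table was subtracted first, and no test was run. A gene was counted as called where the groups did not overlap and the difference was at least 0.5, which 9.24% of genes met in the lower direction and 6.55% in the higher. Of the transporters 4 were called lower (Slc7a11, Slc7a1, Slc1a5 and Slc7a6) and 0 higher, and 9 of the 10 had groups that did not overlap, 8 lower and 1 higher. Without a limit on size, 20.1% of all genes were lower and 24.6% higher with no overlap. The median of the 10 differences was -0.40, and that of all genes was 0.03. The CHZ868 and ruxolitinib comparisons use the same 3 DMSO-treated libraries.

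Centred Slc7a11 was 0.64, 0.77 and 0.85 in DMSO-treated libraries and -0.54, -0.55 and -0.75 in ruxolitinib-treated libraries, a difference of -1.36. Centred Slc7a1 was 2.99, 3.17 and 3.13 against 2.01, 1.97 and 2.0, a difference of -1.10. Centred Slc1a5 was 1.85, 1.83 and 1.82 against 0.90, 0.59 and 0.92, a difference of -1.03. For all 3 carriers the ruxolitinib-treated libraries lay well below the DMSO-treated ones, and the Slc1a5 value of 0.59 belongs to replicate 2, without which the difference was -0.93.

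Slc7a6 differed by -0.50, with centred values of 1.12, 0.79 and 1.14 against 1.56, 1.47 and 1.53. Replicate 2 was again the lowest, and without it the Slc7a6 difference was -0.39 and 3 transporters were called. The remaining system L genes differed less, with -0.37 for Slc7a5, -0.24 for Slc3a2 and 0.29 for Slc43a1, each without overlap. Slc1a4 differed by -0.43 and Slc38a2 by -0.35, also without overlap. The centred values of Slc38a1 were 2.74, 3.04 and 2.75 with ruxolitinib and 3.03, 3.03 and 2.97 with DMSO, so its groups overlapped through replicate 2.

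**Figure D2:**
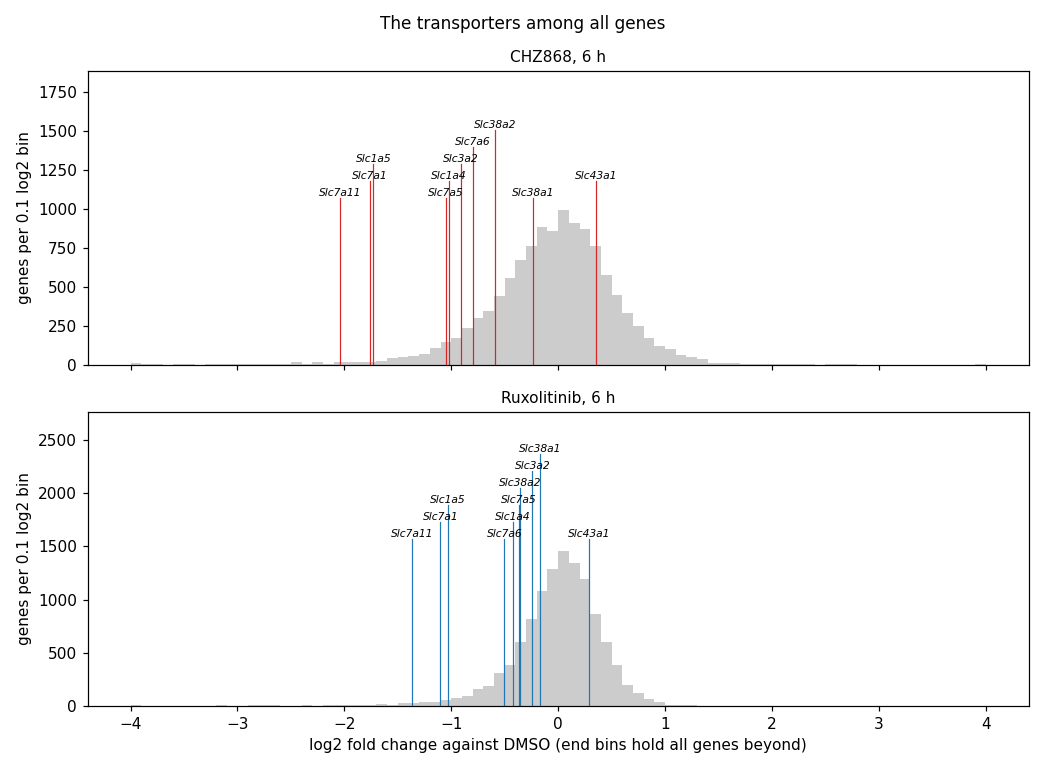
Number of genes per bin of 0.1 log2 units (vertical axis) against the log2 fold change relative to DMSO-treated cells (horizontal axis), for CHZ868 above and ruxolitinib below, with a line at each transporter. Slc7a11, Slc7a1 and Slc1a5 lie in the left tail of both, with 1.0 to 1.6% of all genes lower for CHZ868 and 1.5 to 2.6% for ruxolitinib, and Slc43a1 lies to the right of zero in both.

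Directly compared at the same dose and time, ruxolitinib-treated libraries held more transcript of 6 transporters than CHZ868-treated libraries under the same rule of no overlap and at least 0.5, and less of 0. Across all genes 7.12% met that rule in the higher and 6.65% in the lower direction. The 6 were Slc1a5, Slc7a5, Slc7a11, Slc3a2, Slc7a1 and Slc1a4, with differences from 0.57 to 0.67. Centred Slc7a5 was 3.07, 3.03 and 3.14 with ruxolitinib and 2.18, 2.48 and 2.61 with CHZ868, and centred Slc3a2 was 2.88, 2.96 and 3.03 against 2.29, 2.37 and 2.29. For both chains of LAT1 every ruxolitinib-treated library lay above every CHZ868-treated library. The differences were small for the others, with 0.27 for Slc7a6, 0.21 for Slc38a2, 0.04 for Slc38a1 and -0.09 for Slc43a1, and only Slc38a2 among these had groups without overlap, which brings the transporters without overlap to 7 higher and 0 lower, where 18.6% of all genes were higher and 16.7% lower without overlap. Leaving out each library in turn gave 6 called each time. Of the 3 JAK2 and STAT5 target genes, 0 were called in this comparison, with differences of 0.05 for Cish, -0.08 for Socs2 and 0.34 for Pim1. The Pim1 groups did not overlap, with centred values of 0.74, 0.46 and 0.60 with ruxolitinib and 0.12, 0.25 and 0.42 with CHZ868. Those of Cish and Socs2 overlapped.

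After CHZ868 was washed out, 0 of the 10 transporters passed the test in either direction by limma-trend, where 1.96% of 11355 genes were called higher and 2.07% lower. Without adjustment, 5 transporters and 2767 of all genes had a p under 0.05. Those 5 were also the ones without overlap between the groups, 3 lower and 2 higher, where 16.1% of all genes were lower and 14.9% higher without overlap. Slc7a5 had 8.27, 8.27 and 8.25 log2 CPM in CHZ868-wash and 8.41, 8.48 and 8.46 in DMSO-wash libraries, a difference of -0.19 with an adjusted p = 0.163 (limma). Slc3a2 had 7.89, 7.85 and 7.89 against 8.10, 8.14 and 8.0, a difference of -0.20 with an adjusted p = 0.155 (limma). Both chains of LAT1 were thus somewhat lower in all 3 CHZ868-wash libraries, without passing the threshold. The 95% confidence intervals of these differences were -0.35 to -0.02 for Slc7a5 and -0.37 to -0.03 for Slc3a2, whose outer ends lie short of the falls of 1.05 and 0.91 with CHZ868 present.

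Slc7a6 had 7.07, 6.89 and 6.90 log2 CPM in CHZ868-wash and 6.73, 6.64 and 6.33 in DMSO-wash libraries, a difference of 0.38 (adjusted p = 0.0777, limma). Slc7a11 had 4.14, 4.66 and 4.30 against 3.93, 3.93 and 3.91, a difference of 0.44 (adjusted p = 0.122, limma). These 2 genes, lower with CHZ868 present, had higher means than in the DMSO-wash libraries after its removal, again short of the threshold. Slc43a1, higher with CHZ868 present, differed by -0.23 (adjusted p = 0.178, limma), with 6.51, 6.25 and 6.33 against 6.53, 6.60 and 6.63 log2 CPM. The other 5 transporters differed by -0.14 (Slc1a4) to 0.10 (Slc38a2), with overlapping groups. The lowest DMSO-wash value of Slc7a6, Slc3a2, Slc7a1, Slc1a5 and Slc7a11 was each time that of replicate 3. Without this library Slc7a6 (0.26, adjusted p = 0.0445, limma) and Slc3a2 (-0.24, adjusted p = 0.0263, limma) passed the threshold, as Slc7a6 did without DMSO-wash replicate 2 (0.42, adjusted p = 0.0483, limma).

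After ruxolitinib washout 0 of 9 transporters passed the test by limma-trend, where 0% of 13085 genes were called higher and 0.0229% (3 genes) lower. Slc7a11 is not among the rows of that table and was not analysed there. Without adjustment, 0 transporters and 920 of all genes had a p under 0.05. The differences ran from -0.08 for Slc38a2 to 0.21 for Slc1a4. The groups did not overlap for 2 transporters, Slc7a1 and Slc38a2, both lower, and for 6.59% of all genes in the lower and 6.3% in the higher direction. Slc7a1 had 5.69, 5.68 and 5.67 log2 CPM in ruxo-wash and 5.72, 5.71 and 5.76 in DMSO-wash libraries, and Slc1a5 had 7.17, 7.38 and 7.24 against 7.13, 7.37 and 7.35. The Slc1a5 groups overlapped and the Slc7a1 groups did not, with 95% intervals of the differences of -0.22 to 0.18 and -0.16 to 0.05. Slc7a5 differed by -0.03 (95% interval -0.15 to 0.10) and Slc3a2 by -0.02 (-0.11 to 0.07).

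**Figure D3:**
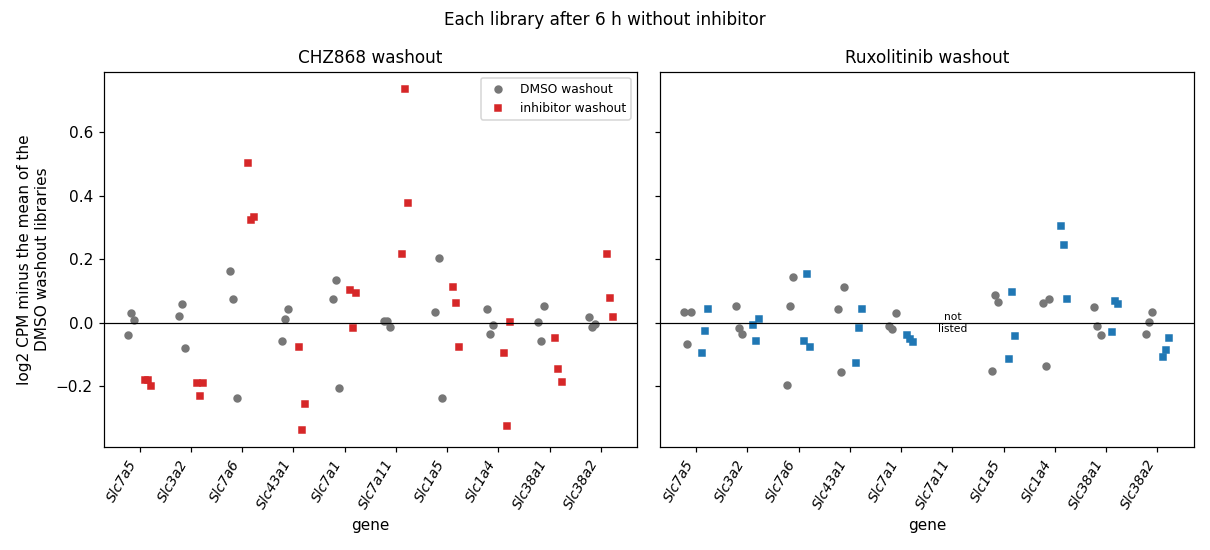
log2 CPM minus the mean of the DMSO-wash libraries of the same experiment (vertical axis) for each transporter in the CHZ868 washout (left) and ruxolitinib washout (right), with circles for DMSO-wash and squares for inhibitor-wash libraries, 3 each. Groups stand apart on the left for Slc7a5, Slc3a2, Slc7a6, Slc43a1 and Slc7a11 and on the right for Slc7a1 and Slc38a2, and 0 transporters passed the test in either panel.

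The washout effects of the inhibitors were also set against each other over the 10078 genes of both washout tables. Of 9 transporters 0 differed by limma-trend, where 0.972% of genes were called in the higher and 0.923% in the lower direction, and without adjustment 4 transporters and 1903 of all genes had a p under 0.05. This fit takes 1 variance per gene for both experiments, which were normalised separately. Their DMSO-wash SDs differed, with 0.026 (ruxolitinib) and 0.181 (CHZ868) for Slc7a1, and 0.14 and 0.051 for Slc43a1. The lack of calls therefore does not show that the washout effects were alike. The widest gap was that of Slc7a6, for which the ruxolitinib effect minus the CHZ868 effect was -0.38 (95% interval -0.73 to -0.03, adjusted p = 0.233, limma). The interval for Slc1a4 was 0.00 to 0.69, and that for Slc1a5 was -0.38 to 0.28.

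The effect of CHZ868 while present differed from its effect after washout for 9 of 10 transporters, 8 of them in the lower and 1 in the higher direction, where 23.8% of 11175 genes were called lower and 23.2% higher. The exposure was 6 h in the first experiment and 1 h in the second, and the experiments were normalised separately. Slc7a11 had the largest gap, -2.48 (SE 0.20, adjusted p = 8.34e-08, limma), followed by Slc7a1 with -1.82 and Slc1a5 with -1.76. Mean Slc7a11 was 6.00 log2 CPM in DMSO-treated and 3.92 in DMSO-wash libraries, against 3.96 in CHZ868-treated and 4.37 in CHZ868-wash libraries. These levels are not on one scale, but the Slc7a11 gap does not show a return to the DMSO-treated level. Slc43a1 had a gap of 0.58 (SE 0.12, adjusted p = 0.00077, limma). Slc38a1 was the exception, with a gap of -0.11 (95% interval -0.31 to 0.09, adjusted p = 0.37, limma).

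**Figure D4:**
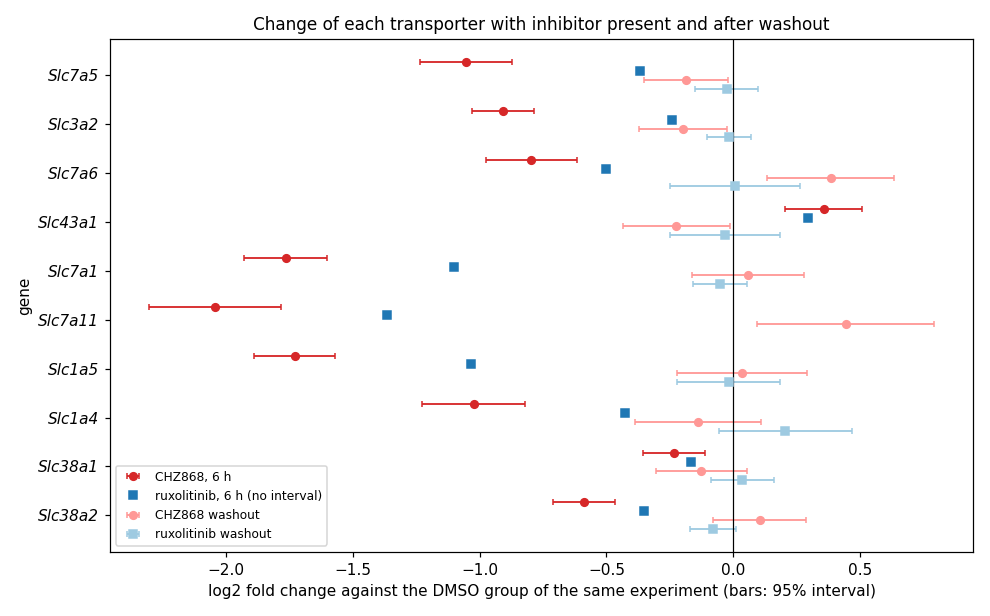
log2 fold change of each transporter against the DMSO group of its experiment (horizontal axis), for CHZ868 and ruxolitinib after 6 h and after washout, with 95% intervals of the limma fit, which the ruxolitinib 6 h values lack because no test was run. The CHZ868 6 h points reach -2.04, the ruxolitinib 6 h points -1.36, and all washout points lie between -0.23 and 0.44.

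Over the 4 comparisons with DMSO, the transporters with the most similar changes were Slc1a5 and Slc7a1, whose log2 differences lay 0.09 apart (Euclidean distance over 4 comparisons, 9 transporters with a value in each). Slc7a5 and Slc3a2, the chains of one dimer, came next at 0.19, and Slc7a5 and Slc1a4 lay 0.25 apart. Slc43a1 was the most distant, with 0.76 to its nearest neighbour Slc38a1. This is a description, since 2 of the 4 comparisons share their DMSO-treated libraries.

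The counts for other amino acid transporters are given for comparison, without a test of the difference. That list too was chosen with earlier results of these data known. Of 33 further carriers 15 were listed in the CHZ868 table, of which 4 fell, 2 rose and 9 did not pass the test, with a median difference of -0.15. For both directions this can be read against the 26.4% of all genes called lower and 26.8% called higher, so 4 of 15 is a share close to the background and 2 of 15 is below it. The glycine carrier Slc6a9 fell by 1.55 (adjusted p = 1.07e-07, limma), Slc7a7, a light chain of system y+L, by 0.95 and the lysosomal carrier Slc15a4 by 0.49. The heavy chain Slc3a1 rose by 1.07 (adjusted p = 0.000238, limma) and the taurine carrier Slc6a6 by 0.43. With ruxolitinib 2 of the 15 were called lower, Slc15a3 (-1.36) and Slc6a9 (-0.51), and 4 higher, among them Slc3a1 (0.59), the lysosomal cystine exporter Ctns (0.53) and the system L carrier Slc43a2 (0.52), where 9.24% of all genes were called lower and 6.55% higher. After washout 0 of 15 (CHZ868) and 0 of 12 (ruxolitinib) were called, with 1 and 2 at an unadjusted p under 0.05 by limma.

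Among genes of the amino acid stress response and of amino acid sensing by mTORC1, 25 of 28 were listed in the CHZ868 table, of which 13 fell, 7 rose and 5 did not pass the test. Against 26.4% of all genes called lower and 26.8% higher, 7 of 25 is close to the background and 13 of 25 is above it. As this list too was chosen with earlier results of these data known, these shares are a description only. Atf4 had 8.14, 8.21 and 8.19 log2 CPM in DMSO-treated and 6.80, 6.93 and 6.71 in CHZ868-treated libraries, a fall of 1.37 (SE 0.07, adjusted p = 3.46e-10, limma) without overlap. Its targets Trib3, a pseudokinase, and Ddit3, a stress transcription factor, fell by 2.67 and 1.56. The genes that rose most were the antioxidant regulator Nfe2l2 (1.00), the lysosomal scaffold gene Lamtor1 (0.63) and Nprl2 (0.58), part of a complex that restrains mTORC1. With ruxolitinib 6 of the 25 were called lower and 2 higher (9.24% and 6.55% of all genes), with -1.43 for Trib3, -0.97 for Myc, -0.74 for Atf4 and 0.72 for Nfe2l2. Myc, which encodes a growth-promoting transcription factor, fell by 0.27 with CHZ868 (adjusted p = 0.00272, limma), and its ruxolitinib-treated libraries spread from 1.97 to 3.04 centred log2 CPM, the highest being replicate 2. After washout 0 of the 25 were called for either inhibitor, with 6 (CHZ868) and 2 (ruxolitinib) at an unadjusted p under 0.05 by limma, and Atf4 differed by 0.10 and 0.03. Myc differed by -0.53 after CHZ868 washout (unadjusted p = 0.00649, adjusted p = 0.078, limma) and by -0.02 after ruxolitinib washout. Its DMSO-wash libraries in the CHZ868 experiment had 9.31, 9.08 and 9.86 log2 CPM, the highest being replicate 3.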

How the data were processed

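RNA of 21 libraries in 7 groups of 3 was extracted with TRIzol and sequenced from mRNA libraries. The authors deposited 4 tables of log2 CPM values, filtered for low expression and normalised by TMM within each table. The paper's methods name kallisto and GRCm38 transcripts, whereas the submitters' processing notes name STAR 2.7.3a, edgeR 4.0.16 and GRCm39, and which applies to which table was not resolved. Whole reads were recovered from 3 tables by taking off their constant (0.2135 to 0.2218 CPM), and not from the ruxo-wash table.

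Within tables, limma-trend (limma 3.58.1, R 4.3.3) compared each inhibitor group with its own DMSO group, using these 6 libraries, two-sided, and adjusted p-values by Benjamini-Hochberg across each whole table. Differences between effects were interaction contrasts over 12 libraries and the genes shared by both tables. The fits were tested on simulated data. Ruxolitinib-treated libraries were compared after median centring, without a test. All 10 transporters are named in the comparisons at 6 h, and the text on washout does not name each one every time. Of the other lists up to 3 genes with the largest rise and fall among those called are named, and Atf4, Myc and the JAK2 and STAT5 targets are named in the comparisons with a DMSO group. The members and lists were chosen with earlier results of these data known. Alternatives were limma without the trend, median centring or none, quantile normalisation, a filter at a mean of 3 log2 CPM, log2(CPM + 1), a replicate block, voom on recovered reads and leaving out each library. Positions and transcripts came from GENCODE for GRCm38, matched by symbol, and near copies were sought with BLAST+ at 90% identity over at least 200 bases. In that search 9 of the 10 genes had none, and no exon of the 10 overlapped another gene.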

Additional observations from a re-analysis of the deposited data

Results flagged for a closer look

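The effect of CHZ868 while present for 6 h differed from its effect after washout, by an interaction contrast in limma over 12 libraries, for 9 of the 10 transporters. The gap (6 h effect minus washout effect, log2 scale) was -2.48 for Slc7a11, -1.82 for Slc7a1, -1.76 for Slc1a5, -1.18 for Slc7a6, -0.88 for Slc1a4, -0.87 for Slc7a5, -0.71 for Slc3a2, -0.69 for Slc38a2 and 0.58 for Slc43a1. Exposure time and removal of the inhibitor changed together between the experiments and cannot be told apart. The solvent level may differ as well, since mean Slc7a11 was 6.00 log2 CPM in DMSO-treated and 3.92 in DMSO-wash libraries, in tables normalised separately.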

How the results depend on the processing

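The 9 lower and 1 higher transporter calls for CHZ868 after 6 h, and the 8 lower and 1 higher calls for its 6 h effect minus its washout effect, held under every alternative run, and quantile normalisation added Slc38a1 to the latter (-0.28, adjusted p = 0.0216, limma). For ruxolitinib against CHZ868 6 transporters were called under every alternative, while all genes called went from 1601 to 2685 without ruxolitinib-treated replicate 2 (1472 to 2685 over libraries left out). For ruxolitinib against DMSO 3 to 4 transporters were called lower over the alternatives. In the CHZ868 washout all genes called went from 457 to 0 without the trend, and to between 0 and 1426 with a library left out (1298 without DMSO-wash replicate 2, 1426 without replicate 3, 0 or 1 without any other), with 0 to 1 transporters called higher and 0 to 1 lower. For ruxolitinib washout all genes called went from 3 to 9 without the trend and to 0 to 1 with a library left out. For the difference between washout effects they went from 191 to 14 without the trend and to 5 to 628 with a library left out (628 without DMSO-wash replicate 2 and 530 without replicate 3 of the CHZ868 experiment). The cause of these shifts was not tested. Same-numbered replicates did not deviate together (correlations of -0.054 to 0.051), and a fit with the replicate block gave 0 called genes for ruxolitinib washout, 6 for the difference between washout effects, 539 for CHZ868 washout and 6192 for CHZ868 after 6 h, and changed no transporter call.

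Signs of the transporter differences turned only where the difference was small and not called, mostly after washout. For ruxolitinib against CHZ868 at 6 h, leaving out a library gave -0.055 to 0.092 for Slc38a1. In the CHZ868 washout, leaving out a library gave -0.045 to 0.123 for Slc7a1 and -0.087 to 0.135 for Slc1a5. In the ruxolitinib washout it gave -0.064 to 0.010 for Slc7a5, -0.036 to 0.008 for Slc3a2, -0.089 to 0.078 for Slc7a6, -0.110 to 0.025 for Slc43a1 and -0.095 to 0.027 for Slc1a5, and quantile normalisation gave -0.005 for Slc7a6. Between the washout effects Slc1a5 ranged from -0.154 to 0.069. Depth is unknown for the ruxolitinib washout, and 3 libraries a group limit every comparison.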
